A study of Saccharomyces cerevisiae with 24 samples.

Results

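The genes described here encode the enzymes of yeast glycolysis, of alcoholic fermentation and of glycerol synthesis and use. They were chosen by name, as 34 genes of a fixed list, and all 34 have a spot among the 6307 ORF spots of each array. The study used 24 two-color arrays, which form 12 comparisons of 2 arrays with reversed Cy3 and Cy5 labeling. All strains were haploid derivatives of BY4741 (*MATa*, with deletions of *URA3*, *LEU2*, *HIS3* and *MET15*) grown in YPD, a rich glucose medium, and each mutant had 1 Mediator subunit gene replaced by a *kanR* cassette. Mediator is the complex that links gene-specific transcription factors to RNA polymerase II. The *med20Δ* strain (a head subunit) was set against wild-type without treatment, after 1 hour in rapamycin at 0.2 µg/ml, after 1 hour in chlorpromazine, after tunicamycin (2.5 µg/ml for 90 min), after H2O2 (0.32 mM for 30 min), after heat (29 to 39°C for 20 min) and in post-diauxic cells grown for 48 hours. The labels give the chlorpromazine dose as 250 mM and the methods as 250 µM. Rapamycin-treated *med20Δ* and wild-type cells were each also set against untreated cells of the same strain, and *med16Δ* (tail), *med31Δ* (middle) and *cycCΔ* (Cdk module) strains were set against wild-type after rapamycin. The sources do not say that each strain was represented by more than 1 isolate, or whether the 2 arrays of a comparison held separate cultures.

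Glycolysis splits hexose phosphates into triose phosphates and oxidizes these to pyruvate, and in glucose medium budding yeast sends most of the pyruvate through acetaldehyde to ethanol even when oxygen is present. Dihydroxyacetone phosphate can be reduced to glycerol 3-phosphate and on to glycerol, which balances redox cofactors and serves as the osmolyte of this yeast. Many steps are encoded by paralogous isoenzyme genes, some for growth on glucose and some for stress or respiratory growth, and the glucokinase gene *GLK1* and the glycerol 3-phosphate dehydrogenase gene *GPD1* are known as stress-responsive members.

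Each value below is a mean log2 ratio over the 2 arrays of a comparison followed in parentheses by array 1 and then array 2, and a ratio is called past 2-fold when that mean is at least 1 or at most -1. A comparison is 1 replicate, so the difference between its 2 arrays is the only measure of spread, and no p-value is given for a member. Counts from limma, which took the paired arrays as replicates, appear only among the alternatives at the end. Because the arrays are a dye swap, that difference also holds any dye effect of a gene. Array 1 had the mutant in Cy3 in the strain comparisons, and the rapamycin-treated sample in Cy5 in the 2 rapamycin responses. Array 2 had the reverse. Median net intensities (foreground minus local background) of ORF spots were 82.5 to 1072.5 over the channels, and across all genes the ratios of the paired arrays correlated with r between 0.231 and 0.917, lowest for the 3 other mutants. The spot of the deleted gene read lower in its own deletion strain on both arrays of every strain comparison, at means between -0.26 and -0.89 for *MED20*, -0.67 for *MED16*, -1.05 for *MED31* and -0.88 for *SSN8* (cyclin C). Although these genes are deleted, only *MED31* passed 2-fold. A ratio inside 2-fold at such dim spots can therefore hide a larger change. The cause of these small ratios was not tested.

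Spot quality decided which members could be read. A member was taken as measured when both arrays gave an unflagged ratio and when on each array at least 1 channel of the spot was brighter than 95% of the 29 spots that carry no name. This held for 337 of the 408 combinations of gene and comparison, and 19 members were measured in all 12 comparisons. *PGI1* (phosphoglucose isomerase), *CDC19* (the main pyruvate kinase) and *ADH5* were flagged on all 18 arrays of the first 9 comparisons, and *ADH3* was flagged on the 6 arrays of the *med16Δ*, *med31Δ* and *cycCΔ* comparisons. *GPM1*, the main phosphoglycerate mutase, was flagged on those 18 arrays, had no signal on 5 of the other 6, and was measured in 0 comparisons. The *HXK1* spot read between -4 and 8 net intensity units in its brighter channel on the 18 arrays and between 4471 and 23423 on the other 6. The *TPI1* spot showed the opposite, with signal on the 18 arrays and none on the 6, and *PYK2* had none on the 8 arrays of the rapamycin experiment. On array 1 of the *med20Δ* to wild-type comparison after rapamycin, and on no other array, *GLK1* had no signal. *ENO2* had signal on 16 of the 18 arrays and was not measured with H2O2 or after heat. On the other 6 arrays *PDC6* had signal on 1 and *PFK1* on 5. Flagged ORF spots numbered 309 to 489 on the 6 arrays and 537 to 622 on the 18, and whether the array sets came from different printings is not stated. The ratio of an empty spot lies near 0 whatever the RNA does, so no value of such a spot is given below. The counts past 2-fold that follow are over all members with a ratio, as for all genes, and the other counts and medians are over measured members unless stated.

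**Figure D1:**
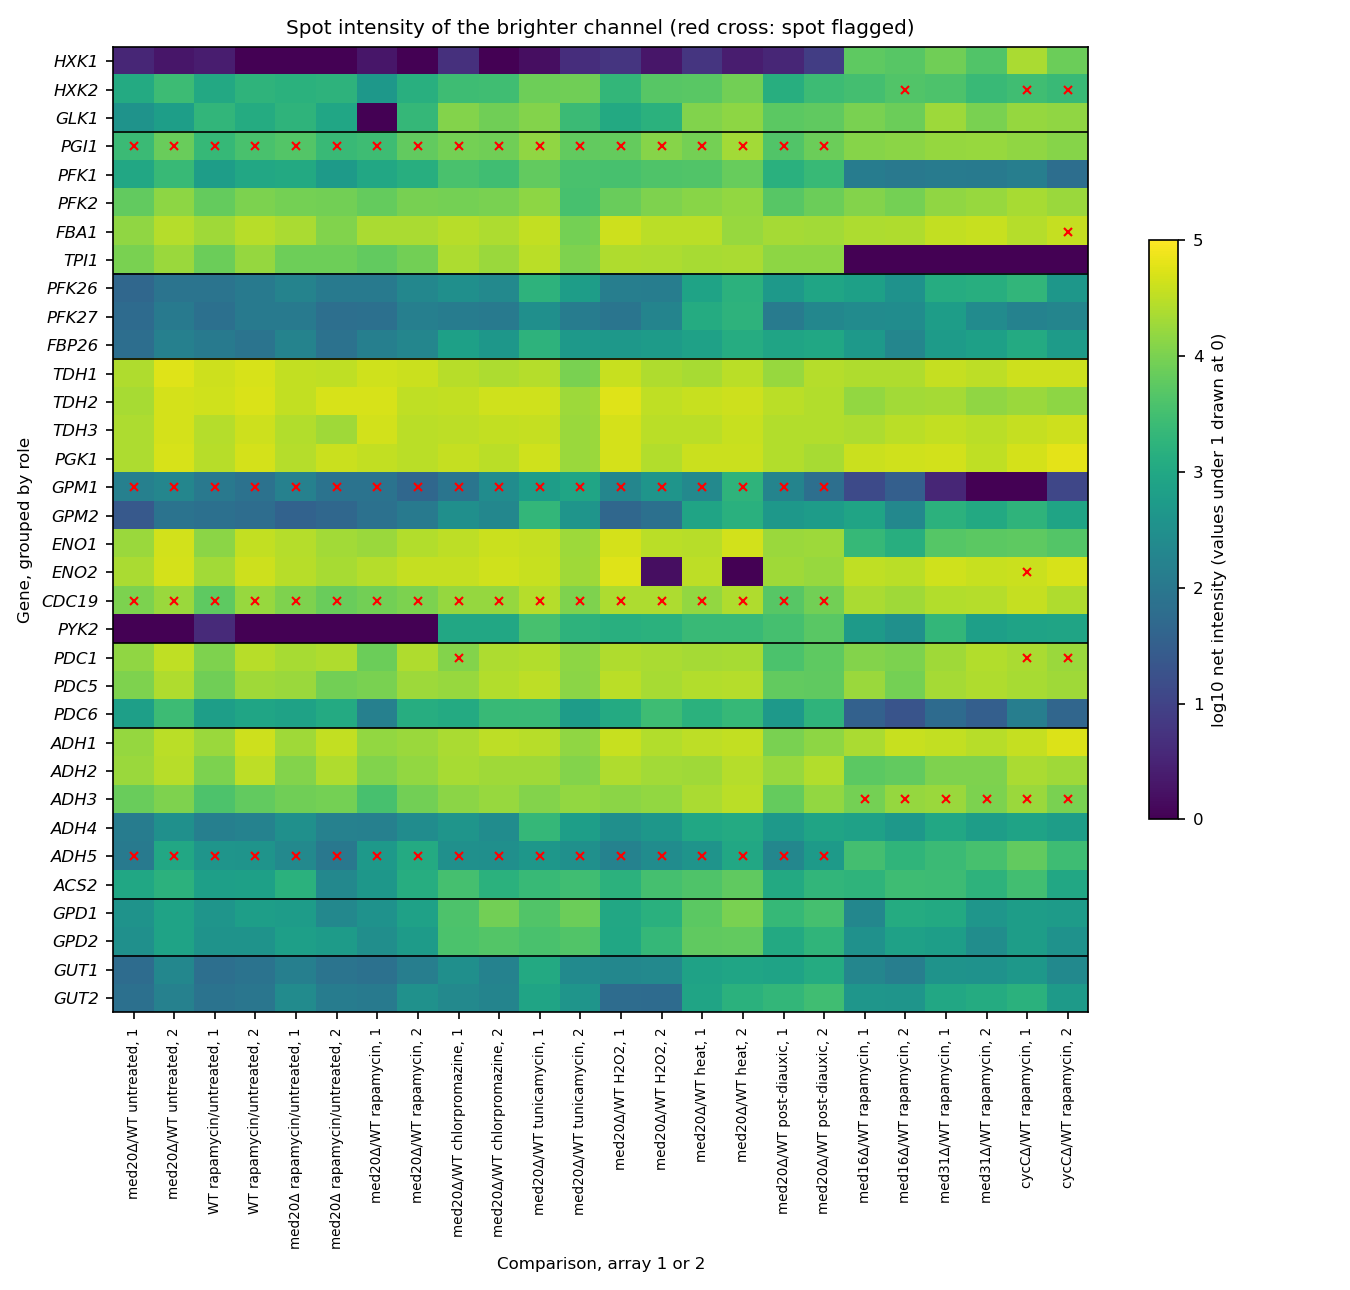
Net intensity of the brighter channel (log10 units, color) of each of the 34 spots on the 24 arrays, with genes in rows by role and arrays in columns; red crosses mark flagged spots. Dark cells are spots without signal, such as HXK1 on the first 18 arrays, TPI1 on the last 6 and PYK2 on the first 8.

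Over all comparisons 23 of 363 member values with a ratio passed 2-fold, from 12 members. Of the 23, 6 were higher and 17 lower, and 11 passed on both arrays. The shares of all genes stand beside the members for each comparison. In untreated *med20Δ* cells 0 members were higher and 1 of 30 with a ratio was lower than in untreated wild-type cells, against 0.245% higher, 0.683% lower and 0.928% in either direction of all genes. In *med20Δ* rapamycin placed 4 of 30 members higher and 0 lower than in untreated *med20Δ* cells (all genes, 3.19% higher, 5.57% lower, 8.76% in all). In wild-type it placed 1 of 30 higher and 1 lower (all genes, 3.94% higher, 6.2% lower, 10.1% in all). Between rapamycin-treated *med20Δ* and wild-type cells 0 of 30 passed (all genes, 2.11% higher, 1.81% lower, 3.92% in all). Under the other conditions most members past 2-fold were lower in *med20Δ*. With chlorpromazine 0 of 29 were higher and 2 lower (all genes, 1.14% higher, 2.16% lower, 3.3% in all), and with tunicamycin 0 of 30 were higher and 3 lower (all genes, 1.86% higher, 0.743% lower, 2.6% in all). With H2O2 1 of 30 was higher and 2 were lower (all genes, 2.83% higher, 1.54% lower, 4.36% in all), and after heat 0 of 30 were higher and 2 lower (all genes, 0.823% higher, 2.01% lower, 2.84% in all). In post-diauxic cells, which had the most, 0 of 30 were higher and 5 lower (all genes, 0.892% higher, 1.98% lower, 2.87% in all). After rapamycin 0 of 32 members passed in *med16Δ* relative to wild-type (all genes, 0.135% higher, 0.101% lower, 0.236% in all), 1 of 33 was lower and 0 higher in *med31Δ* (all genes, 0.101% higher, 0.742% lower, 0.843% in all), and 0 of 29 passed in *cycCΔ* (all genes, 0.398% higher, 0.243% lower, 0.641% in all). With so few members past the limit, these counts describe the members named below and not the group.

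The medians over measured members were below that of all genes in the strain comparisons, without reaching 2-fold. In *med20Δ* relative to wild-type the median was -0.08 in untreated cells, -0.24 after rapamycin, -0.46 with chlorpromazine, -0.18 with tunicamycin, -0.36 with H2O2, -0.35 after heat and -0.42 in post-diauxic cells, while the median over all genes lay between -0.01 and 0.02 in each comparison. Measured members lower on both arrays outnumbered those higher on both in all 7 conditions. They were 12 of 28 lower and 4 higher in untreated cells (all genes, 32.2% and 32.9%), 11 of 27 and 4 after rapamycin (33.1% and 33.1%), 15 of 28 and 4 with chlorpromazine (30.5% and 29.3%) and 15 of 29 and 2 with tunicamycin (34.2% and 33.8%). With H2O2 they were 17 of 28 and 7 (29.6% and 31.5%), after heat 18 of 28 and 2 (31.2% and 32.7%), and in post-diauxic cells 17 of 29 and 6 (27.9% and 28.1%). The arrays of a pair differed, however. Over members with a ratio, the medians of the 2 arrays were -0.61 and -0.10 with chlorpromazine, -0.57 and -0.05 with H2O2, and -0.27 and 0.05 after rapamycin. They were -0.22 and 0.03 in untreated cells, -0.35 and -0.01 with tunicamycin, -0.45 and -0.18 after heat, and -0.21 and -0.35 in post-diauxic cells. Array 1, with the mutant in Cy3, thus had the lower median except in post-diauxic cells. The part of dye was not tested. In the *med16Δ*, *med31Δ* and *cycCΔ* comparisons the medians over measured members were -0.21, -0.05 and -0.07.

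**Figure D2:**
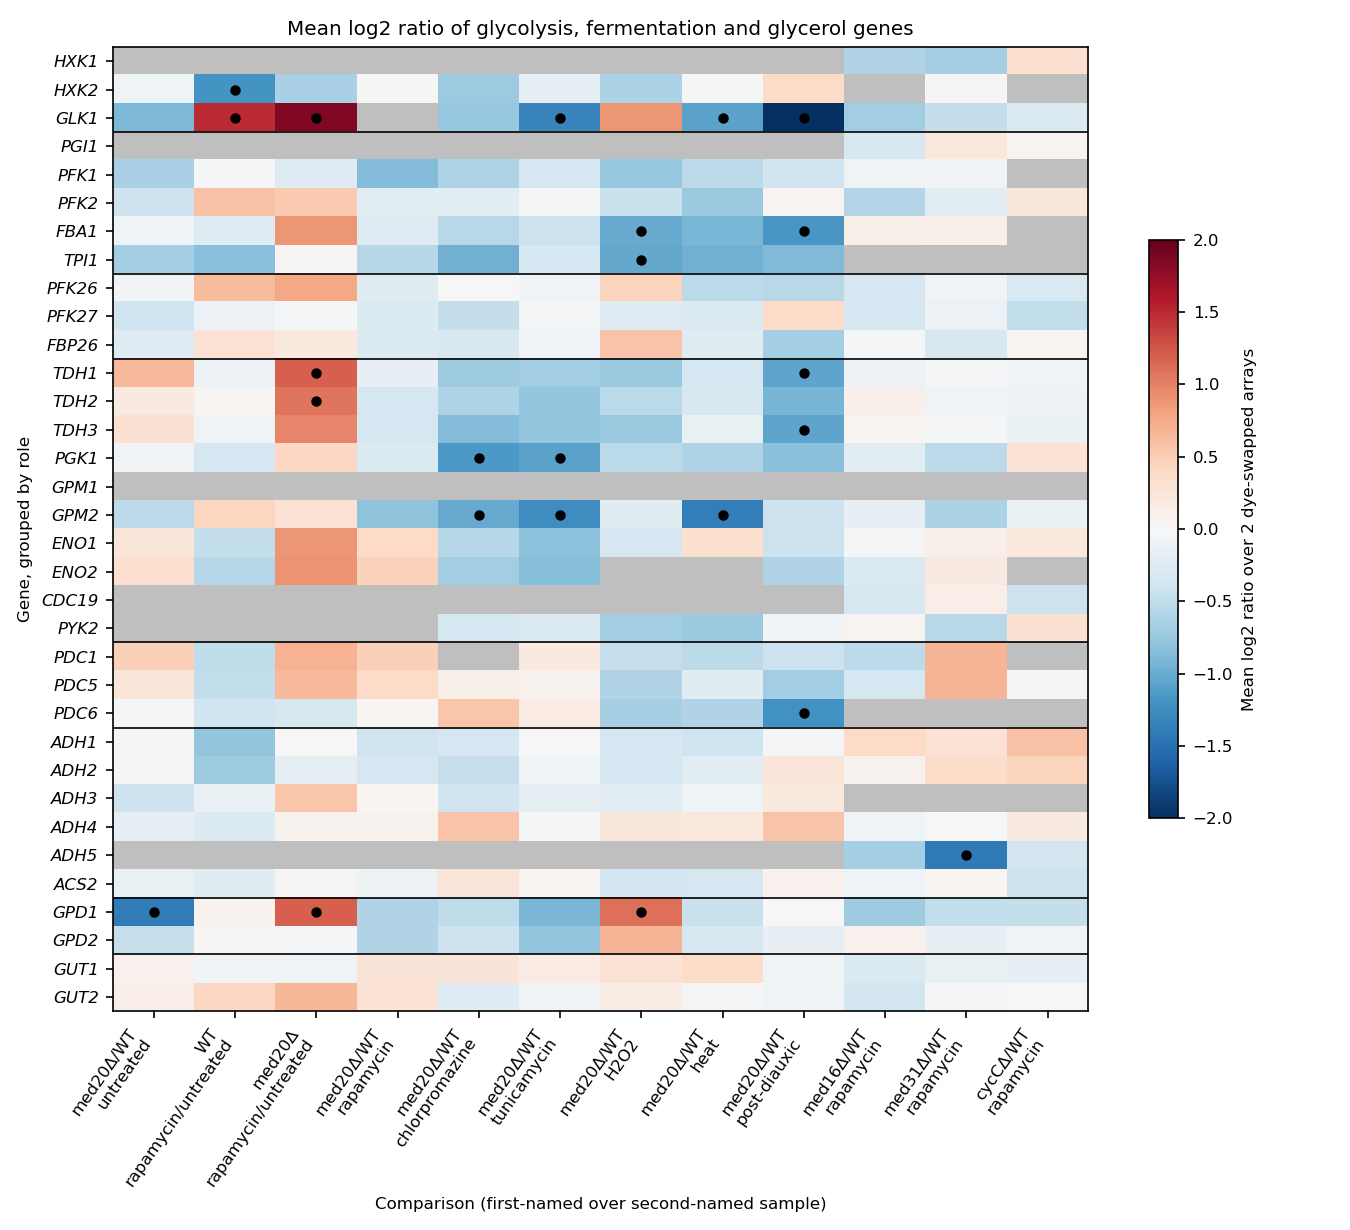
Mean log2 ratio of each member (rows, by role) in each comparison (columns), with red for higher and blue for lower in the sample named first; grey cells were not measured and black dots mark 2-fold or more. GLK1 and the 2 GPD genes show both colors, while most other cells are pale.

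Among the hexose kinases, *GLK1* (YCL040W, glucokinase) gave the largest ratios of all members. It was higher after rapamycin in both strains. Normalized intensities were 1341 and 1093 in rapamycin-treated *med20Δ* cells, against 370 and 302 in untreated *med20Δ* cells, a log2 ratio of 1.86 (1.86, 1.86). In wild-type they were 1812 and 1661 after rapamycin and 538 and 708 without it, or 1.49 (1.75, 1.23). Both arrays of both strains were past 2-fold.

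The strain comparison put *GLK1* lower in *med20Δ* in 5 of the 6 conditions in which it was measured, on both arrays each time. The deepest value was in post-diauxic cells, where *GLK1* read 1441 and 1904 in *med20Δ*, against 6465 and 7184 in wild-type, a log2 ratio of -2.04 (-2.17, -1.92), or 4.11-fold. With tunicamycin it read 4062 and 1025 in *med20Δ*, against 10722 and 2443 in wild-type, or -1.33 (-1.40, -1.25), and after heat 6112 and 6984 in *med20Δ*, against 11608 and 16227 in wild-type, or -1.07 (-0.93, -1.22). Those 3 conditions passed 2-fold, and the array pairs kept the strains apart in the same direction. It stayed inside 2-fold in untreated cells, at -0.90 (-1.05, -0.75), which became -1.08 with local background subtracted, and with chlorpromazine, at -0.76 (-1.13, -0.39). H2O2 was the exception. There *GLK1* was higher in *med20Δ*, with 1078 and 1667 in *med20Δ* and 741 and 718 in wild-type, at 0.88 (0.54, 1.21). After rapamycin only array 2 had signal and gave -0.67, beside -0.53 when derived from the untreated ratio and the responses of the strains. *GLK1* was also lower, inside 2-fold, in *med16Δ*, at -0.69 (-0.46, -0.92), in *med31Δ*, at -0.48 (-0.21, -0.75), and in *cycCΔ*, at -0.29 (-0.15, -0.44).

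*HXK2* (YGL253W), the hexokinase of glucose-grown cells, which also acts in glucose repression, moved the other way from *GLK1* in the rapamycin response. In *med20Δ* the log2 ratio of treated to untreated cells was -0.64 (-0.57, -0.72), inside 2-fold. In wild-type it read 662 and 518 after rapamycin and 1266 and 1423 without it, or -1.20 (-0.93, -1.46). Between strains *HXK2* was lower in *med20Δ* on both arrays with chlorpromazine, at -0.73 (-0.42, -1.04), and with H2O2, at -0.64 (-0.64, -0.64), and higher in post-diauxic cells, at 0.38 (0.28, 0.48). *HXK1*, the hexokinase of cells on other carbon sources, was readable only in the other mutants, at -0.60 (-0.65, -0.54) in *med16Δ*, -0.67 (-0.94, -0.40) in *med31Δ* and 0.32 (-0.07, 0.70) in *cycCΔ*. *EMI2*, a paralog of *GLK1* on the list of other pathway genes, had the sign of *GLK1* in all 6 strain conditions where both were measured, at -0.92 (-0.77, -1.07) in untreated cells (-1.28 with local background subtracted), -1.12 (-1.53, -0.72) with chlorpromazine, -1.01 (-1.33, -0.69) with tunicamycin, -0.91 (-0.92, -0.89) after heat, -0.90 (-0.78, -1.03) in post-diauxic cells and 0.44 (0.00, 0.87) with H2O2. Its rapamycin response stayed inside 2-fold, at 0.49 (0.49, 0.49) in *med20Δ* and -0.13 (-0.12, -0.14) in wild-type. Cross-hybridization between these paralogs was not tested.

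**Figure D3:**
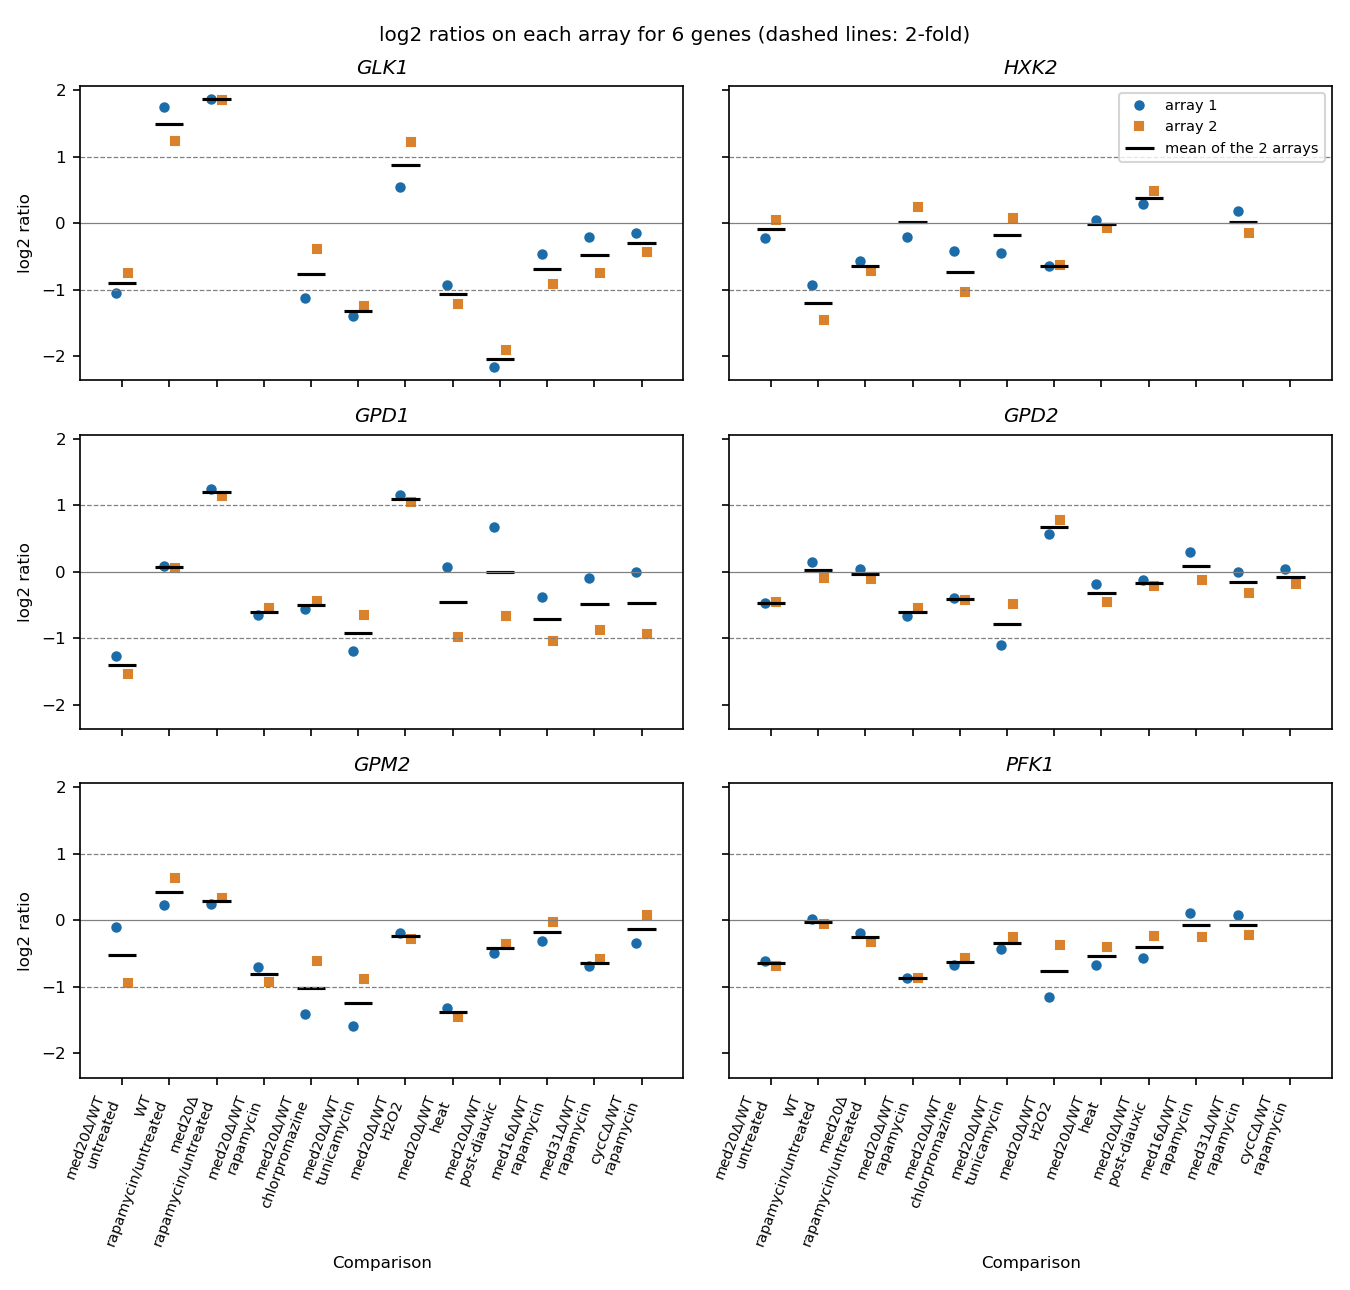
log2 ratios on array 1 (circles) and array 2 (squares) with their mean (bars) for 6 genes over the 12 comparisons; dashed lines mark 2-fold, and comparisons without a measured value are blank. GLK1 runs from -2.04 in post-diauxic cells to 1.86 in the med20Δ rapamycin response, and GPD1 from -1.40 in untreated cells to 1.20 in that response.

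The enzymes that carry hexose phosphate to triose phosphate leaned lower in *med20Δ*. *PFK1*, the alpha subunit of phosphofructokinase, was lower on both arrays in all 7 conditions, between -0.87 (-0.87, -0.86) after rapamycin and -0.34 (-0.43, -0.26) with tunicamycin, and the first of these became -1.05 with the authors' ratios. Its partner *PFK2*, the beta subunit, was lower on both arrays in 5 of 7, with -0.74 (-0.45, -1.03) after heat as its lowest value. *TPI1* (triose phosphate isomerase) was lower on both arrays in 6 of 7 conditions. It passed 2-fold with H2O2, with 10873 and 12573 in *med20Δ* cells, against 22631 and 24910 in wild-type, at -1.02 (-1.06, -0.99), and stood at -0.96 (-1.11, -0.81) after heat.

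*FBA1* (YKL060C, fructose-bisphosphate aldolase) was past 2-fold in a pair of conditions. With H2O2 it read 16114 and 17029 in *med20Δ* and 36169 and 30765 in wild-type, a log2 ratio of -1.01 (-1.17, -0.85), and in post-diauxic cells 11780 and 9418 in *med20Δ* and 21616 and 25825 in wild-type, or -1.17 (-0.88, -1.46). In untreated cells its arrays had opposite signs, at -0.09 (-0.46, 0.28), with 0.24 when the loess curve left out ribosomal protein genes, and the same was true after rapamycin and with chlorpromazine. The H2O2 values of *FBA1* and *TPI1* lie at the limit itself. With the authors' normalized ratios they became -0.82 and -0.95.

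The genes that set fructose 2,6-bisphosphate, the activator of phosphofructokinase, were inside 2-fold in every comparison as processed here. *PFK26*, a kinase that makes it, was higher after rapamycin in both strains, at 0.77 (0.82, 0.71) in *med20Δ* and 0.63 (0.42, 0.84) in wild-type. With local background subtracted these were 1.44 in *med20Δ* and 1.11 in wild-type, and with the authors' ratios 1.38 and 1.08, past 2-fold. In *med20Δ* relative to wild-type it was -0.54 (-0.57, -0.51) after heat, -0.55 (-0.51, -0.60) in post-diauxic cells and 0.44 (0.39, 0.50) with H2O2. *FBP26*, the phosphatase that removes the activator, had the same signs in these 3 conditions, at -0.24 (-0.30, -0.18), -0.69 (-0.98, -0.39) and 0.56 (0.23, 0.90). *PFK27*, the other kinase, ranged in *med20Δ* relative to wild-type from -0.47 with chlorpromazine to 0.39 in post-diauxic cells.

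Arrays of a pair disagreed in sign more often at bright spots than at other members. In the 14 members whose brighter channel had a median of 5000 net units or more over the 8 arrays of the rapamycin experiment, a limit set after the values were seen (*PFK2*, *FBA1*, *TPI1*, the *TDH* genes, *PGK1*, *ENO1*, *ENO2*, *PDC1*, *PDC5* and *ADH1* to *ADH3*), the arrays of a pair had opposite signs in 77 of 156 measured values. In the other members this was so in 51 of 181. Opposite signs were also common over all genes. In the wild-type rapamycin response 39.3% of all genes were lower and 38.6% higher on both arrays. In *med16Δ*, at the other end, these shares were 26.1% and 26.0%. *TDH1* in untreated cells is an example, at 0.65 in *med20Δ* relative to wild-type with arrays at -0.36 and 1.66. The arrays of a pair have opposite dye order, and the part of dye in such differences was not tested. These 14 lie in several sections of the pathway. Closely related paralogs had similar ratios. Within each comparison the 3 *TDH* genes, which encode glyceraldehyde 3-phosphate dehydrogenase, spanned a median of 0.19 and at most 0.47 log2 units, the *ENO* pair 0.09 and at most 0.25, *PDC1* and *PDC5* 0.14 and at most 0.28, and *ADH1* and *ADH2* 0.10 and at most 0.32. Such spots can share hybridization, so their values are not independent readings, and the shared part was not tested.

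As processed here, the genes from triose phosphate to pyruvate had positive rapamycin ratios in *med20Δ*. Their size, and for *PGK1* and *ENO2* also the sign, rested on the normalization. All 7 measured members between triose phosphate and pyruvate were higher on both arrays in rapamycin-treated *med20Δ* cells than in untreated ones, with a median of 0.90, beside 36.8% of all genes higher on both, while in wild-type the median was -0.11 with 1 member higher and 1 lower on both. *TDH1* (YJL052W) read 24244 and 41698 in treated *med20Δ* cells and 11717 and 16392 in untreated ones, a log2 ratio of 1.20 (1.05, 1.35), and *TDH2* (YJR009C) 25021 and 47236 in treated cells and 11402 and 23282 in untreated ones, or 1.08 (1.13, 1.02). Beside them *TDH3* was at 0.98 (0.73, 1.24), *ENO1* (enolase) at 0.89 (0.72, 1.06) and *ENO2* at 0.90 (0.76, 1.03). The same ratios in wild-type were -0.11 (0.99, -1.22) for *TDH1*, 0.04 (0.96, -0.89) for *TDH2* and -0.09 (0.59, -0.77) for *TDH3*, with arrays on opposite sides of 0. With the loess curve fitted on genes other than cytoplasmic ribosomal protein genes, the *med20Δ* median was 0.03, with *TDH1* at 0.20, *TDH2* at 0.03, *TDH3* at 0.10, *ENO2* at -0.01 and *PGK1* at -0.56, and with median centering it was 0.23. The wild-type median ranged over these settings and the authors' ratios from -0.88 to 0.34.

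The comparisons of the rapamycin experiment can be set against each other, since the untreated strain ratio plus the *med20Δ* response minus the wild-type response should give the strain ratio after rapamycin. For 13 less bright members measured in all 4 comparisons it did so with a median signed gap of 0.10, and single gaps from -0.18 to 0.45. Over all 5647 genes the median signed gap was 0.04, with an SD of 0.41. For the 14 bright members the derived value exceeded the direct one by a median of 1.20, and by 2.13 for *TDH1*, 1.34 for *ENO2* and 1.31 for *FBA1*. *TDH1* had a derived ratio of 1.96 and a direct one of -0.17, with arrays at -1.41 and 1.08. Among the bright members *PFK2* and *ADH3* came closest, with gaps of -0.26 and 0.25. Across the other ways of processing, the median gap of the bright members was 0.57 to 1.63, smallest with the authors' ratios. The rapamycin ratios of the *TDH* and *ENO* genes, *PDC1*, *PDC5*, *FBA1*, *TPI1*, *PGK1*, *ADH1* and *ADH2* therefore do not close. Their gaps ran from 0.74 to 2.13, and the cause was not tested.

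**Figure D4:**
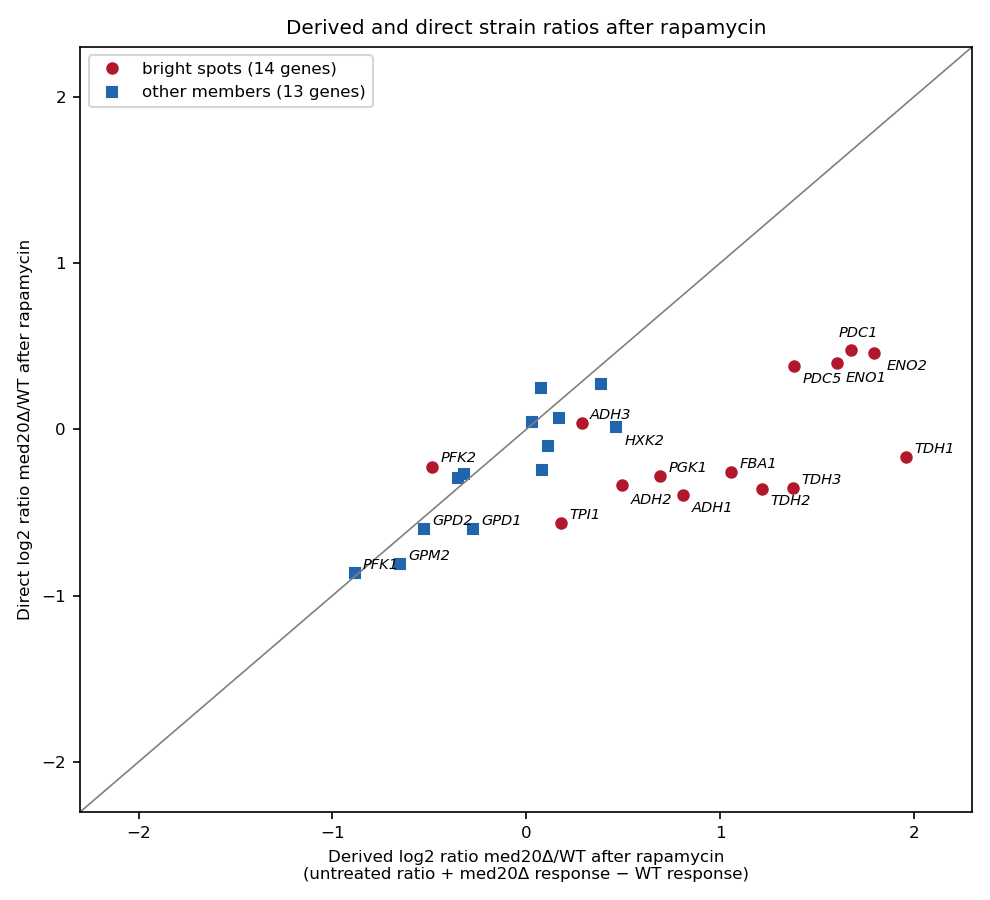
Direct log2 ratio of med20Δ to wild-type after rapamycin (vertical) against the ratio derived from the other 3 comparisons (horizontal) for 27 members; the line marks equality. The 14 bright members (circles) lie mostly to the right of the line, with TDH1 at 1.96 derived and -0.17 direct, while the 13 others (squares) lie near it.

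Under the other conditions the genes from triose phosphate to pyruvate had medians below 0 in *med20Δ* relative to wild-type. Their measured members had a median of -0.70 with chlorpromazine (4 of 8 lower on both arrays), -0.80 with tunicamycin (7 of 8), -0.55 with H2O2 (5 of 7), -0.36 after heat (3 of 7) and -0.72 in post-diauxic cells (7 of 8), beside the shares of all genes given above. In untreated cells the median was 0.24 with 1 of 7 lower on both arrays. The post-diauxic median became -0.35 with the authors' ratios. *TDH3* (YGR192C) read 14871 and 14300 in post-diauxic *med20Δ* cells and 26157 and 35272 in wild-type, a log2 ratio of -1.06 (-0.81, -1.30). *TDH1* read 13954 and 10404 in post-diauxic *med20Δ* cells and 17046 and 36426 in wild-type, or -1.05 (-0.29, -1.81), so array 2 carried most of it, and *TDH2* stood at -0.93 (-0.96, -0.89). With the authors' ratios *TDH3* was -0.70 and *TDH2* -0.59. *PGK1* (YCR012W, phosphoglycerate kinase) passed 2-fold with chlorpromazine, with 8552 and 25237 in *med20Δ* and 38858 and 27508 in wild-type, at -1.15 (-2.18, -0.12), and with tunicamycin, with 9819 and 13518 in *med20Δ* and 35708 and 16485 in wild-type, at -1.07 (-1.86, -0.29). Array 1 decided both *PGK1* values, and array 2 alone gave less than 1.5-fold.

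*GPM2* (YDL021W), a minor phosphoglycerate mutase paralog, has a dim spot. It was lower in *med20Δ* on both arrays in all 7 conditions. After heat it read 413 and 568 in *med20Δ*, against 1031 and 1546 in wild-type, a log2 ratio of -1.38 (-1.32, -1.45), or 2.61-fold, with both arrays past 2-fold. With tunicamycin it read 686 and 238 in *med20Δ*, against 2059 and 440 in wild-type, or -1.24 (-1.59, -0.89), and with chlorpromazine 158 and 166 in *med20Δ*, against 422 and 254 in wild-type, or -1.01 (-1.41, -0.61). The smallest difference was with H2O2, at -0.24 (-0.20, -0.28). Its size at this dim spot rested on the background correction. In untreated cells the strain ratio was -0.52, but -1.39 with local background subtracted and -1.27 with the authors' ratios, and after rapamycin -0.81, -1.91 and -1.71. In contrast to the strain ratio, its rapamycin response was positive in both strains, at 0.29 (0.25, 0.34) in *med20Δ* and 0.43 (0.23, 0.63) in wild-type, or 1.00 and 0.96 with local background subtracted. *PYK2*, a pyruvate kinase isoenzyme that is repressed by glucose, was lower on both arrays in 4 of the 5 *med20Δ* conditions with signal, down to -0.74 (-0.85, -0.64) after heat, and lower in *med31Δ*, at -0.55 (-0.50, -0.60). *CDC19* was measured only in the other mutants, at -0.32 (-0.33, -0.32) in *med16Δ*, 0.13 (-0.03, 0.29) in *med31Δ* (-0.08 with the authors' ratios) and -0.43 (-0.73, -0.12) in *cycCΔ*. *PGI1* was likewise limited to these, with opposite signs on the arrays of all 3 pairs.

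Pyruvate decarboxylase turns pyruvate into acetaldehyde, and *PDC1* and *PDC5* are its main genes. After rapamycin they were at 0.70 (0.33, 1.06) and 0.65 (0.39, 0.90) in *med20Δ* relative to untreated *med20Δ*, and at -0.50 (-0.21, -0.80) and -0.49 (-0.24, -0.74) in wild-type relative to untreated wild-type. Both are among the bright spots for which the 4 rapamycin comparisons did not close, with gaps of 1.20 and 1.00. Their directions changed with the normalization. In *med20Δ* they were -0.22 and -0.04 with loess fitted without ribosomal protein genes, and in wild-type *PDC1* was 1.26 and *PDC5* -0.01 with the authors' ratios. In *med31Δ* they were higher than in wild-type after rapamycin on both arrays, at 0.68 (0.64, 0.72) and 0.68 (0.67, 0.70), and in *med16Δ* lower, at -0.52 (-0.20, -0.84) and -0.35 (-0.21, -0.49). The 2 genes thus had opposite signs in *med31Δ* and *med16Δ*, inside 2-fold. *PDC6* (YGR087C), a minor isoenzyme, was past 2-fold in post-diauxic cells, with 359 and 711 in *med20Δ* and 680 and 2035 in wild-type, a log2 ratio of -1.22 (-0.92, -1.52), and was higher in *med20Δ* with chlorpromazine, at 0.56 (0.60, 0.53).

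The rapamycin ratios of the main alcohol dehydrogenases were not stable to the normalization. *ADH1*, the enzyme that forms ethanol, had a rapamycin response of 0.00 (-0.17, 0.17) in *med20Δ* and -0.78 (-0.24, -1.33) in wild-type. *ADH2*, the ethanol-oxidizing isoenzyme, had one of -0.18 (-0.58, 0.23) in *med20Δ* and -0.72 (-0.45, -0.98) in wild-type. With loess fitted without ribosomal protein genes *ADH1* was -0.92 in *med20Δ* and -1.47 in wild-type and *ADH2* -1.31 in wild-type, while with the authors' ratios the wild-type values were 0.14 and 0.05. *ADH2* was higher in each of the other mutants than in wild-type after rapamycin on both arrays, by 0.08 in *med16Δ*, 0.36 in *med31Δ* and 0.45 in *cycCΔ*. The means of *ADH1* were 0.40 in *med16Δ* and 0.58 in *cycCΔ*, and in *med31Δ* it lay 0.07 log2 units from *ADH2*. Because *ADH1* and *ADH2* are close paralogs, their spots were not taken as separate. *ADH3*, the mitochondrial isoenzyme, was at 0.56 (0.33, 0.79) after rapamycin in *med20Δ*, but at -0.04 with that loess curve. *ADH4* was higher in *med20Δ* than in wild-type on both arrays with chlorpromazine, at 0.58 (0.24, 0.91), after heat, at 0.22 (0.01, 0.42), and in post-diauxic cells, at 0.57 (0.21, 0.93).

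*ADH5* (YBR145W), a minor alcohol dehydrogenase, was the 1 member past 2-fold in the comparisons of the other mutants. In *med31Δ* cells after rapamycin it read 1129 and 1352, against 2584 and 4170 in wild-type, a log2 ratio of -1.41 (-1.19, -1.63), with both arrays past 2-fold. In *med16Δ* it was -0.68 (-0.56, -0.80) and in *cycCΔ* -0.37 (-0.11, -0.64), so all 6 arrays had it lower in the mutant. *ACS2*, the acetyl-CoA synthetase used in glucose-grown cells, stayed between -0.42 and 0.25 in all 12 comparisons.

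Glycerol 3-phosphate dehydrogenase commits carbon to glycerol. *GPD1* (YDL022W), its osmotically induced isoenzyme and the chromosomal neighbor of *GPM2*, was the 1 member past 2-fold in untreated cells. It read 163 and 335 in untreated *med20Δ*, against 395 and 970 in untreated wild-type, a log2 ratio of -1.40 (-1.28, -1.53), or 2.65-fold lower. It read 491 and 283 in rapamycin-treated *med20Δ*, against 207 and 128 in untreated *med20Δ*, or 1.20 (1.25, 1.14), while the wild-type response was 0.07 (0.08, 0.06). After rapamycin the strains differed by -0.60 (-0.66, -0.55), and the value derived from the other comparisons was -0.28, a gap of 0.33. Under H2O2 the strain ratio had the opposite sign. *GPD1* read 953 and 1546 in *med20Δ*, against 427 and 750 in wild-type, at 1.10 (1.16, 1.04). These 3 values past 2-fold were seen on both arrays. With tunicamycin it was -0.92 (-1.19, -0.65) and with chlorpromazine -0.50 (-0.56, -0.45), whereas after heat, at -0.45 (0.08, -0.98), and in post-diauxic cells, at 0.00 (0.67, -0.66), the arrays had opposite signs.

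*GPD2*, the isoenzyme linked to growth without oxygen, stayed inside 2-fold. It was lower in *med20Δ* on both arrays in 6 of 7 conditions, with -0.46 (-0.47, -0.46) in untreated cells, -0.60 (-0.67, -0.54) after rapamycin and -0.79 (-1.10, -0.48) with tunicamycin, and higher with H2O2, at 0.67 (0.56, 0.78). It did not respond to rapamycin by more than the array difference, at -0.04 (0.04, -0.12) in *med20Δ* and 0.02 (0.14, -0.10) in wild-type. The *GPD* pair spanned a median of 0.25 and up to 1.24 log2 units within a comparison. Its largest span exceeded those of the *TDH*, *ENO*, *PDC* and *ADH* sets above, while its median was near the 0.19 of the *TDH* genes. Values for the phosphatases that complete glycerol synthesis, *GPP1* and *GPP2*, went against the *GPD* genes under H2O2. *GPP1* read 1824 and 2704 in *med20Δ* and 5217 and 7671 in wild-type, at -1.51 (-1.52, -1.50), and *GPP2* 2047 and 2904 in *med20Δ* and 5630 and 9834 in wild-type, at -1.61 (-1.46, -1.76).

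*GPP1* was lower in *med20Δ* on both arrays in all 7 conditions and *GPP2* in 6 of them. Both passed 2-fold after heat as well, where *GPP1* was -1.16 (-0.89, -1.44) and *GPP2* -1.33 (-0.87, -1.78). *GPP1* was lower after rapamycin in both strains, at -1.21 (-1.32, -1.11) in *med20Δ* and -1.46 (-1.32, -1.60) in wild-type. In the other mutants after rapamycin it stood at 0.57 (0.72, 0.42) in *med16Δ*, 0.02 (0.15, -0.11) in *med31Δ* and 0.74 (0.87, 0.61) in *cycCΔ*. The paralogs encode closely similar proteins, and cross-hybridization was not tested. Of the genes of glycerol use, *GUT1* (glycerol kinase) was higher in *med20Δ* on both arrays in 6 of 7 conditions but by at most 0.37 (0.21, 0.54), after heat. *GUT2*, the mitochondrial glycerol 3-phosphate dehydrogenase, was higher after rapamycin in both strains, at 0.66 (0.78, 0.54) in *med20Δ* and 0.41 (0.38, 0.44) in wild-type, and in *med20Δ* it passed 2-fold with the authors' ratios, at 1.09, and with local background subtracted, at 1.04.

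Of the 19 other genes of the pathway that were listed, 5 passed 2-fold in some comparison, with 1 of 215 ratios higher and 9 lower. Besides *EMI2*, *GPP1* and *GPP2* these were *ADH6*, an NADPH-dependent alcohol dehydrogenase, and *TYE7*, a transcription factor of glycolytic genes. Of 18 with a ratio, 2 were lower with chlorpromazine (all genes, 2.16% lower), 2 with H2O2 (1.54%) and 2 after heat (2.01%). With tunicamycin (0.743%) and in the rapamycin responses of *med20Δ* (5.57%) and wild-type (6.2%) it was 1 each. The 1 higher value was in post-diauxic cells (all genes, 0.892% higher). These counts describe the genes named here and not the list. *ADH6* was higher in *med20Δ* on both arrays in all 7 conditions, most in post-diauxic cells, with 859 and 1789 in *med20Δ*, against 363 and 689 in wild-type, at 1.31 (1.24, 1.38). *TYE7* was -1.04 (-0.82, -1.26) with chlorpromazine and lower on both arrays in 6 of 7 conditions. *GCR1*, the main activator of glycolytic genes, was lower on both arrays in 5 of 7, between -0.57 and -0.36, and *GCR2*, its partner, also in 5. *RAP1*, a general factor at glycolytic and ribosomal protein promoters, was -0.65 (-0.78, -0.51) in *med20Δ* and -0.64 (-0.61, -0.67) in wild-type after rapamycin relative to untreated cells. *ACS1*, the acetyl-CoA synthetase of respiring cells, was higher after rapamycin in both strains, at 0.92 (0.79, 1.05) in *med20Δ* and 0.72 (0.64, 0.80) in wild-type, or 1.48 and 1.04 with the authors' ratios. *GUP1* was flagged in the first 9 comparisons, and the remaining genes stayed inside 2-fold as processed here.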

How the data were processed

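Poly(A)+ RNA of 2 samples, one labeled with Cy5 and one with Cy3, was hybridized to each spotted array of yeast ORFs. The authors deposited, for each spot, foreground and local background intensities of both channels, a flag of unstated meaning, and log10 ratios of Cy5 to Cy3, raw and normalized by a method for which the paper cites earlier work. The series table that the authors deposited equals the normalized log10 ratios (largest difference 0, column medians -0.0133 to 0.0168), and its centering is not stated further. Aligner and genome build do not apply, and the scanner is not given in the sources used here.

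Each array held 6912 spots, of which 6307 were ORFs, 576 controls and 29 unnamed. Intensities were corrected with normexp (offset 50) and ratios normalized by loess within each array in limma 3.58.1 (R 4.3.3). Flagged and control spots had weight 0 and were then left out. Ratios were turned to a common direction by the dyes in the labels and averaged over the 2 arrays, so each log2 ratio is a mean of a dye swap, counted as 1 replicate, and precision is limited by there being only 2 arrays. Normalized intensities include the offset and were compared within a spot only. The call of 2-fold follows the study's cutoff. Summaries used Python 3.11.15, pandas 2.3.3 and numpy 2.4.6, and the figures matplotlib 3.10.9. The steps were tested on simulated data.

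The members and the other lists were chosen with earlier results of these data known. Every member was accounted for. Channel values were given where a member's mean ratio was at least 2-fold with the same direction on both arrays, isoenzymes were set beside it, and other pathway genes past 2-fold on the same terms were named. The *GLK1* channel values under H2O2 and the inside-2-fold values of other genes were added after seeing the data. The members carried their names in the files, and 5801 ORFs matched the R64 gene table, which served for names and neighbors only. Alternatives changed the background correction, the normalization, the filters, the cutoff and the arrays used. Isoenzyme identity and promoters were not analysed here.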

Additional observations from a re-analysis of the deposited data

Results flagged for a closer look

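The *med20Δ* to wild-type ratio of *GLK1*, *GPD1* and *GPD2* was above 0 on both arrays with H2O2. It was below 0 on both arrays in the conditions named below for each gene, but not for *GPD1* after heat or in post-diauxic cells. None of these differences between conditions was tested, since each condition is 1 dye-swapped pair. For *GLK1* the log2 ratio with H2O2 exceeded that in untreated cells by 1.78, with chlorpromazine by 1.64, with tunicamycin by 2.20, after heat by 1.95 and in post-diauxic cells by 2.92. For *GPD1* it exceeded that in untreated cells by 2.50, after rapamycin by 1.70 and with tunicamycin by 2.02. For *GPD2* it exceeded that after rapamycin by 1.28 and with tunicamycin by 1.46.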

How the results depend on the processing

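The 23 member ratios past 2-fold were recomputed 230 times in all, of which 202 moved by less than the SD of the paired arrays and 28 by more, and 0 changed sign. The 202 were in part fixed in advance. Leaving out 1 array always moves a mean of 2 by less than that SD. Leaving out the dimmest ORFs or members without signal leaves a kept ratio as it was. Where the paired arrays lie far apart, the SD is also a wide limit. Of 314 measured values inside 2-fold, 29 passed it and 55 changed sign under at least 1 other background correction, normalization or flag filter, among them 16 of the 186 that had 1 sign on both arrays. Member counts past 2-fold moved in 77 of 168 recomputations. They are given in the order of the comparisons: *med20Δ* to wild-type untreated (1), *med20Δ* rapamycin response (4), wild-type rapamycin response (2), then *med20Δ* to wild-type after rapamycin (0), with chlorpromazine (2), tunicamycin (3), H2O2 (3), heat (2) and in post-diauxic cells (5), then *med16Δ* (0), *med31Δ* (1) and *cycCΔ* (0). With a 1.5-fold limit they were 5, 13, 7, 4, 10, 10, 12, 8, 11, 4, 5 and 0. With 2-fold required on both arrays they were 1, 4, 1, 0, 0, 1, 1, 1, 1, 0, 1 and 0. With the authors' normalized ratios they were 2, 8, 5, 2, 1, 4, 1, 2, 3, 0, 1 and 0. With local background subtracted they were 3, 11, 5, 1, 2, 3, 2, 2, 5, 0, 1 and 1. With median centering they were 1, 2, 6, 0, 1, 5, 5, 2, 4, 0, 1 and 0. With loess fitted on genes other than the 137 ribosomal protein genes they were 2, 3, 10, 0, 1, 3, 3, 2, 3, 0, 1 and 0. Without the filter on flags the untreated count was 2 and that after rapamycin 1. Single arrays gave 2 to 3, 4 to 9, 1 to 7, 2 to 3, 1 to 10, 1 to 10, 2 to 10, 4 to 5, 1 to 6, 0 to 1, 2 to 2 and 0 to 2. The cause was not tested.

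In limma, with Benjamini-Hochberg adjustment at 0.05 and the 2 arrays of a pair taken as replicates, members called without a replicate block numbered 3, 7, 7, 3, 5, 3, 11, 7, 6, 0, 2 and 0, beside 3.31, 26.3, 29.3, 10.6, 14.2, 6.30, 18.7, 11.4, 14.3, 0.456, 2.72 and 2.17% of all genes. With the replicate block (a dye term, since replicate numbers mark dye orientation) they were 3, 10, 9, 3, 9, 5, 13, 8, 10, 0, 3 and 0, beside 5.32, 31.2, 33.4, 13.9, 18.2, 8.63, 22.7, 15.8, 19.4, 0.641, 3.95 and 3.20%. Where limma called 0, unadjusted p-values under 0.05 were 8 and 9 in *med16Δ* and 7 and 9 in *cycCΔ*, without and with the block. Leaving out members without signal, an alternative chosen after seeing the data, the dimmest 25% of ORFs, or the background correction left every count within 1.5 times. What limits these values is 1 dye-swapped pair for each comparison, flagged and empty spots, and bright spots whose arrays disagree.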
